A study of Mus musculus with 17 samples.

Results

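DNA replication in S phase is described here through 38 genes, taken by name from 3 classes of the replication machinery: origin licensing and firing, the polymerases and their partners at the fork, and nucleotide reduction. Each gene was read from probe sets that carry that gene symbol alone, with the brightest probe set kept where there were several. Of the 38 genes, 37 were measured, among 18193 genes in all; Chaf1a had no probe set of its own. By role, 17 of the 38 act at origins, 13 at the fork and 3 in nucleotide supply. The remaining 5 act in chromatin assembly, histone mRNA and uracil repair, and 4 of them were measured.

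The study sorted 5 progenitor fractions from the bone marrow of adult mice aged 10 to 14 weeks and hybridised their amplified RNA to 17 Affymetrix 3-prime arrays. MkP (gate Lin-Sca1-Kit+Itga2b+Slamf1+, 3 arrays) is a megakaryocyte progenitor, and preCFUE (Lin-Sca1-Kit+, Itga2b-, FcgRlow, Slamf1+, Enghigh, 3 arrays) precedes the erythroid colony-forming cell. PreMegE (the same gate with Englow, 5 arrays) carries both megakaryocyte and erythroid potential. CLP (Lin-, Sca1low, Kitlow, IL7r+, Flk2+, 3 arrays) is the lymphoid progenitor, and preGM (Lin-Sca1-Kit+, Itga2b-, FcgRlow, Slamf1-, Englow, 3 arrays) is the early granulocyte and monocyte progenitor. The labels give no treatment, mutation or other allele for any fraction, and all 5 share the same source, adult marrow. The short names are those in general use for these gates. Separate mice, cultures or sorts are not stated for the replicate arrays, and the p-values therefore cover the spread among arrays alone, part or all of which may be technical. The free-text field of all 17 arrays names a further gate that conflicts with the titles, and it was not used.

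Markers fitted the gates. All 6 megakaryocyte markers, 6 erythroid, 6 lymphoid and 6 granulocyte-monocyte markers averaged over 100 intensity units in MkP, preCFUE, CLP and preGM, in that pairing. The summed lymphoid markers reached 10747 to 17963 in CLP and 2356 to 3609 in preGM. In preMegE, 5 of the 6 erythroid and 3 of the 6 megakaryocyte markers also averaged over 100. The erythroid sum was 4633 to 7585 in preMegE and 9191 to 10611 in preCFUE. CLP replicate 2 correlated with preGM at 0.96 across genes and with the other CLP arrays at 0.95, so CLP results are also given without it. The 5 measured neutrophil markers summed to 108 to 1354 in MkP, 192 to 377 in preCFUE, 87 to 1526 in preMegE, 72 to 184 in CLP and 203 to 1504 in preGM, and their part in the results was not tested. Array medians lay between 15.96 and 19.1. Precision is limited by how many arrays each fraction has.

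A eukaryotic cell copies its genome once per cycle by separating licensing from firing. In G1 the origin recognition complex, Cdc6 and Cdt1 load the Mcm2-7 helicase, and geminin (Gmnn) blocks reloading later. In S phase the kinase Cdc7 with Dbf4 helps Mcm10, Cdc45 and GINS turn the loaded helicase into a moving one, after which primase and polymerases follow. Many of these genes are transcribed under E2F factors as cells enter S phase, and committed erythroid progenitors are known as fast-cycling cells. In a sorted pool, a higher share of cells in S phase and more transcript per cell cannot be told apart.

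The replication genes were mostly highest in preCFUE and lowest in CLP or preMegE. The mean intensity was highest in preCFUE for 29 of the 37 genes, in preGM for 5 and in MkP for 3. It was lowest in CLP for 19 and in preMegE for 18. By limma's moderated F test over the 5 fractions, 28 of the 37 genes passed an adjusted p of 0.05, against 35.0% of all genes. The passing genes were 11 of 17 at origins, 12 of 13 at the fork, 3 of 3 in nucleotide supply and 2 of 4 in chromatin and repair. The median distance between the highest and lowest fraction mean was 1.09 on the log2 scale for the replication genes and 0.45 over all genes. Every fold change is on the scale of log2(intensity + 16), which understates the change of dim genes. Such genes lower the distance over all genes, where 34.9% of values were under 16. No distance among brighter genes alone is given. Cdc6 had the widest distance among the 37, at 2.57, and Mcm6 the narrowest, at 0.38. Averaged over the 37 genes, the log2 level was 8.89 ± 0.098 in MkP, 9.38 ± 0.074 in preCFUE, 8.53 ± 0.20 in preMegE, 8.42 ± 0.39 in CLP and 9.05 ± 0.19 in preGM (SD, n = 3, 3, 5, 3 and 3 arrays).

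**Figure D1:**
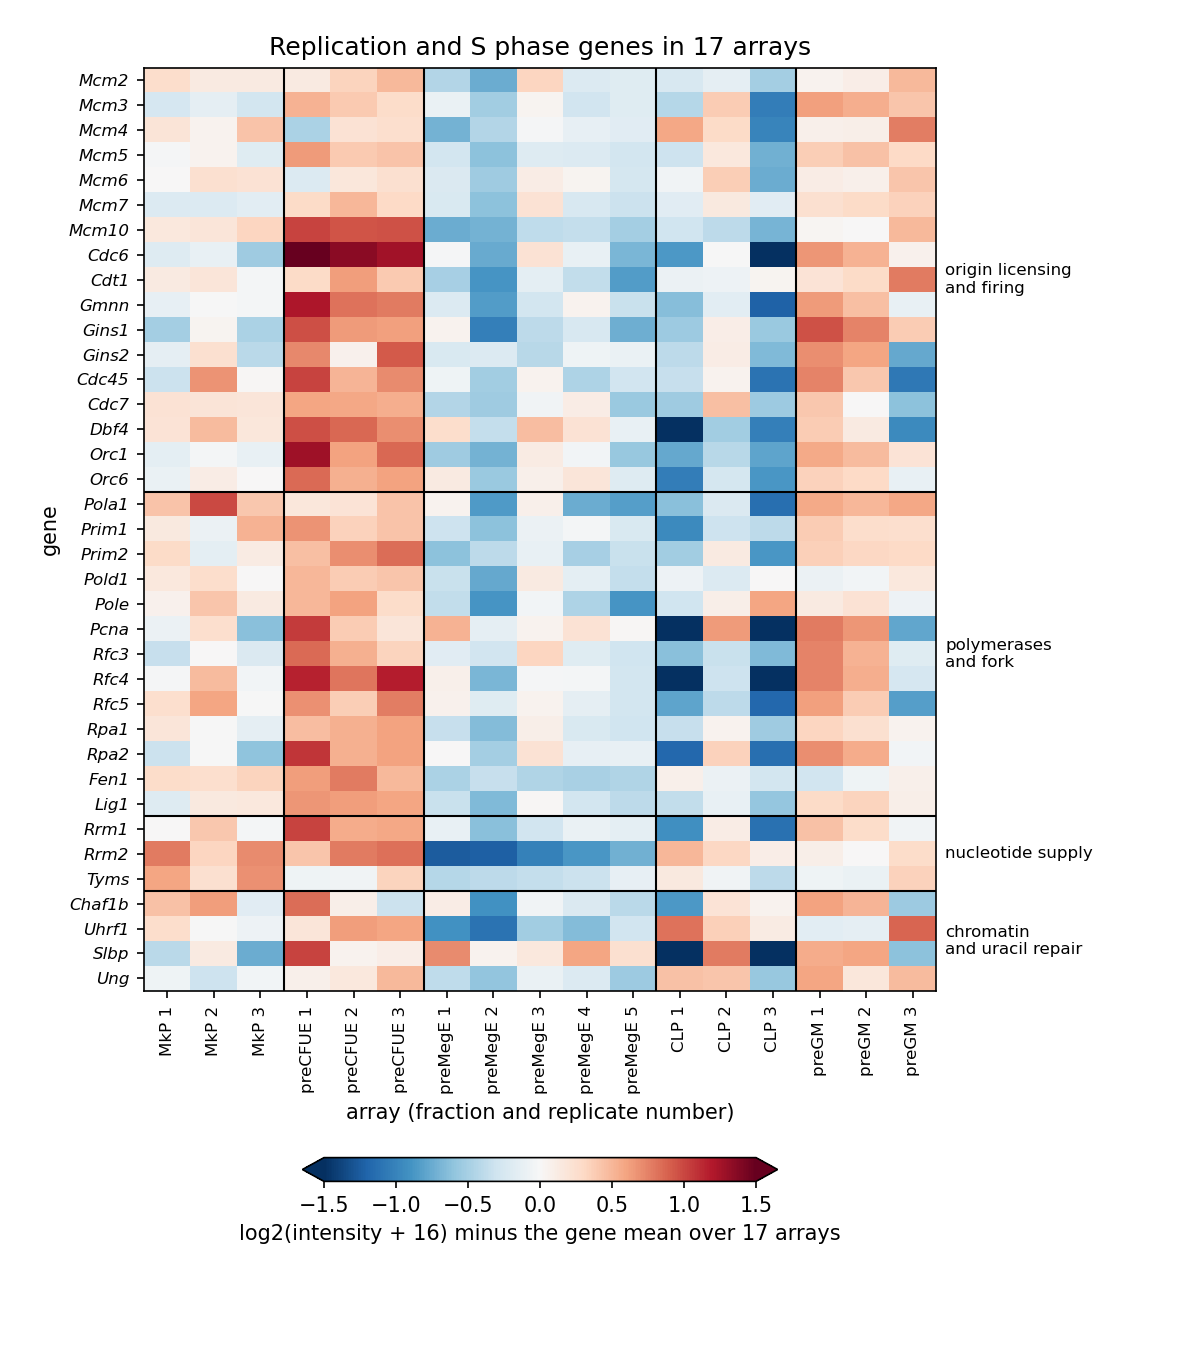
Level of each of the 37 measured genes on each of the 17 arrays, as log2(intensity + 16) minus that gene's mean over the arrays, with genes in rows by role and arrays in columns by fraction. Red cells crowd the 3 preCFUE columns, and blue cells the preMegE columns and CLP replicates 1 and 3.

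Promoters were examined for E2F-type and CCAAT words. RefSeq (GRCm38.p6) gave a window of 250 bases before to 50 after the start for 32 of the 38 genes. The E2F-type words searched were TTTCCCGC, TTTCGCGC, TTTGCCGC and TTTGGCGC, and the other was CCAAT, all on both strands, with overlapping matches counted. An E2F-type word lay in the windows of 12 of these 32 genes (37.5%), against 2.61% of 27025 genes in all. CCAAT lay in 20 of the 32 (62.5%), against 41.1% of all genes. By role, the E2F-type word was found in 7 of 13 origin genes (Cdc6, Cdt1, Mcm3, Mcm5, Mcm6, Mcm7 and Orc1), 4 of 11 fork genes (Lig1, Pola1, Pold1 and Rfc3), 1 of 5 chromatin and repair genes (Uhrf1) and 0 of 3 nucleotide genes. Promoters of 6 genes are shown for the genes that carried the changes or that differ in these words, as the 180 bases before the start, 5′ to 3′ on the gene's strand, with E2F-type and CCAAT words in capitals.
Cdc6, chr11:98907971-98908150, plus strand: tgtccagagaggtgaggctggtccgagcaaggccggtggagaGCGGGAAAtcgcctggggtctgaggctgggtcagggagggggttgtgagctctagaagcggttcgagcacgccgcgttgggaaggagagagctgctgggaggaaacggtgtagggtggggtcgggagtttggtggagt
Orc1, chr4:108579274-108579453, plus strand: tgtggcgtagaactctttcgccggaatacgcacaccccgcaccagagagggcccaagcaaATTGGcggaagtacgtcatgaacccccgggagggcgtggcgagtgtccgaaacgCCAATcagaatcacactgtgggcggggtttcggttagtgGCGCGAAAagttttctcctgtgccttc
Mcm5, chr8:75109329-75109508, plus strand: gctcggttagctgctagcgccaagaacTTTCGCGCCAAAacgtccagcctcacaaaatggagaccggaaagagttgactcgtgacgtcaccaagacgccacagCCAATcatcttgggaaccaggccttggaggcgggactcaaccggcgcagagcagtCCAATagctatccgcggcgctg
Mcm7, chr5:138171884-138172063, minus strand: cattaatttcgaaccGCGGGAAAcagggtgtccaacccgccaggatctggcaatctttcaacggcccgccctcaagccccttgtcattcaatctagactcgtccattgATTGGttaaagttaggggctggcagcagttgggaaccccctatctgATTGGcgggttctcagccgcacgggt
Mcm10, chr2:5012792-5012971, minus strand: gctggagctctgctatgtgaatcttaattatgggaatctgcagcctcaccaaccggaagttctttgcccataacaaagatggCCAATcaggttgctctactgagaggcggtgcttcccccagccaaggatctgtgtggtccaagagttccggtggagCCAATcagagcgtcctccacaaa
Rrm2, chr12:24708074-24708253, plus strand: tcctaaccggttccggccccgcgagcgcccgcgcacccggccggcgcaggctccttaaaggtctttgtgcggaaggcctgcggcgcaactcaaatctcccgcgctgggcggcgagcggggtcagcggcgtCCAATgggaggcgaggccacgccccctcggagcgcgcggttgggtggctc

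In these stretches Cdc6 and Orc1 each hold 1 E2F-type word, and Mcm5 holds 2 that overlap as TTTCGCGCCAAA. For Mcm7, the window of its 2 that holds the E2F-type word is shown. Mcm10 and Rrm2 hold CCAAT but none of the 4 E2F-type words, although both were among the genes that changed most. A match describes these letters only, and a missing match says only that they are not in the window.

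Among origin genes, Mcm10, which joins the helicase as origins fire, separated the fractions most by the F test (adjusted p = 3.37e-06). Its intensities were 274, 279 and 309 in MkP, 509.6, 483 and 487 in preCFUE, 139, 144, 184, 187 and 166 in preMegE, 196, 182 and 144 in CLP, and 249, 244 and 348 in preGM. The 3 preCFUE arrays lay above all others, the preMegE and CLP arrays lay lowest and overlapped, and MkP overlapped preGM. Orc1, the ATPase subunit of the origin recognition complex, had 36.3, 40.9 and 37.6 in MkP, 124, 72.2 and 88.8 in preCFUE, 23.9, 19.5, 46.9, 40.3 and 23.0 in preMegE, 18.1, 27.4 and 17.5 in CLP, and 69.6, 64.2 and 50.6 in preGM (F test adjusted p = 0.00026). All preCFUE arrays lay above all preGM arrays, and these above every MkP, preMegE and CLP array.

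In the probe sets kept, the loading factors differed in shape. Cdc6 had 194, 206 and 149.9 in MkP, 782, 601 and 559 in preCFUE, 222, 127, 263, 206 and 134 in preMegE, 117, 223 and 26.1 in CLP, and 365, 329 and 235 in preGM (F test adjusted p = 0.00498). The preCFUE values stood clear of every other array, and MkP and preMegE overlapped. Cdt1, its partner in loading the helicase, had 2449, 2537 and 2189 in MkP, 2732, 3463 and 2933 in preCFUE, 1574, 1200.3, 2008, 1727 and 1240.1 in preMegE, 2094, 2107 and 2289.9 in CLP, and 2574, 2717 and 3846 in preGM (adjusted p = 0.00113). Here preMegE stood alone at the bottom and preCFUE overlapped preGM. Gins1, a subunit of the GINS complex, had 213, 318 and 218 in MkP, 620.3, 491 and 482 in preCFUE, 321, 144, 231, 259 and 180.3 in preMegE, 207, 331 and 204 in CLP, and 614, 526 and 406 in preGM (adjusted p = 0.00175). The preCFUE and preGM arrays overlapped and lay above the remaining fractions, which overlapped among themselves.

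In the brightest probe sets, helicase subunits had narrower distances between fraction means than their loaders. These were 0.38 to 0.88 on the log2 scale for Mcm2-7. The loaders Cdt1, Orc6, Orc1 and Cdc6 had 0.99, 1.39, 1.57 and 2.57. A dimmer probe set of Mcm3 gave -1.20 for CLP against preGM, and its other dimmer ones gave -0.65 to 0.17. A dimmer probe set of Cdt1 gave 1.30 for preCFUE against preMegE. The contrast between helicase and loaders therefore depends on the probe sets kept. Mcm5, a subunit of the Mcm2-7 ring, had 2615, 2741 and 2321 in MkP, 4125, 3462 and 3549 in preCFUE, 2184, 1722, 2307, 2295 and 2169 in preMegE, 2131, 2940.1 and 1589 in CLP, and 3414, 3571 and 3262 in preGM (F test adjusted p = 0.00259). The preCFUE and preGM arrays overlapped and lay above all others. In the probe sets used, Mcm3, Mcm5 and Mcm7 passed the F test, while Mcm2 (adjusted p = 0.0517), Mcm4 (0.468) and Mcm6 (0.458) did not. Dimmer probe sets of Mcm2 and Mcm4 did pass the F test (adjusted p = 0.0445 and 0.0257). Whether Mcm2 and Mcm4 differ among fractions therefore rests on the probe set. The Mcm4, Mcm5 and Mcm6 values come from probe sets of a type that can share probes with other sequences. The other origin genes past the test were Mcm3, Mcm7, Gmnn, Dbf4 and Orc6, and those short of it were Mcm2, Mcm4, Mcm6, Gins2, Cdc45 and Cdc7. Gmnn, which encodes the licensing inhibitor geminin, averaged 748 ± 33.2 in MkP, 1517 ± 266 in preCFUE, 633 ± 136 in preMegE, 506 ± 184 in CLP and 1000.1 ± 256 in preGM (SD, n = 3, 3, 5, 3 and 3).

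**Figure D2:**
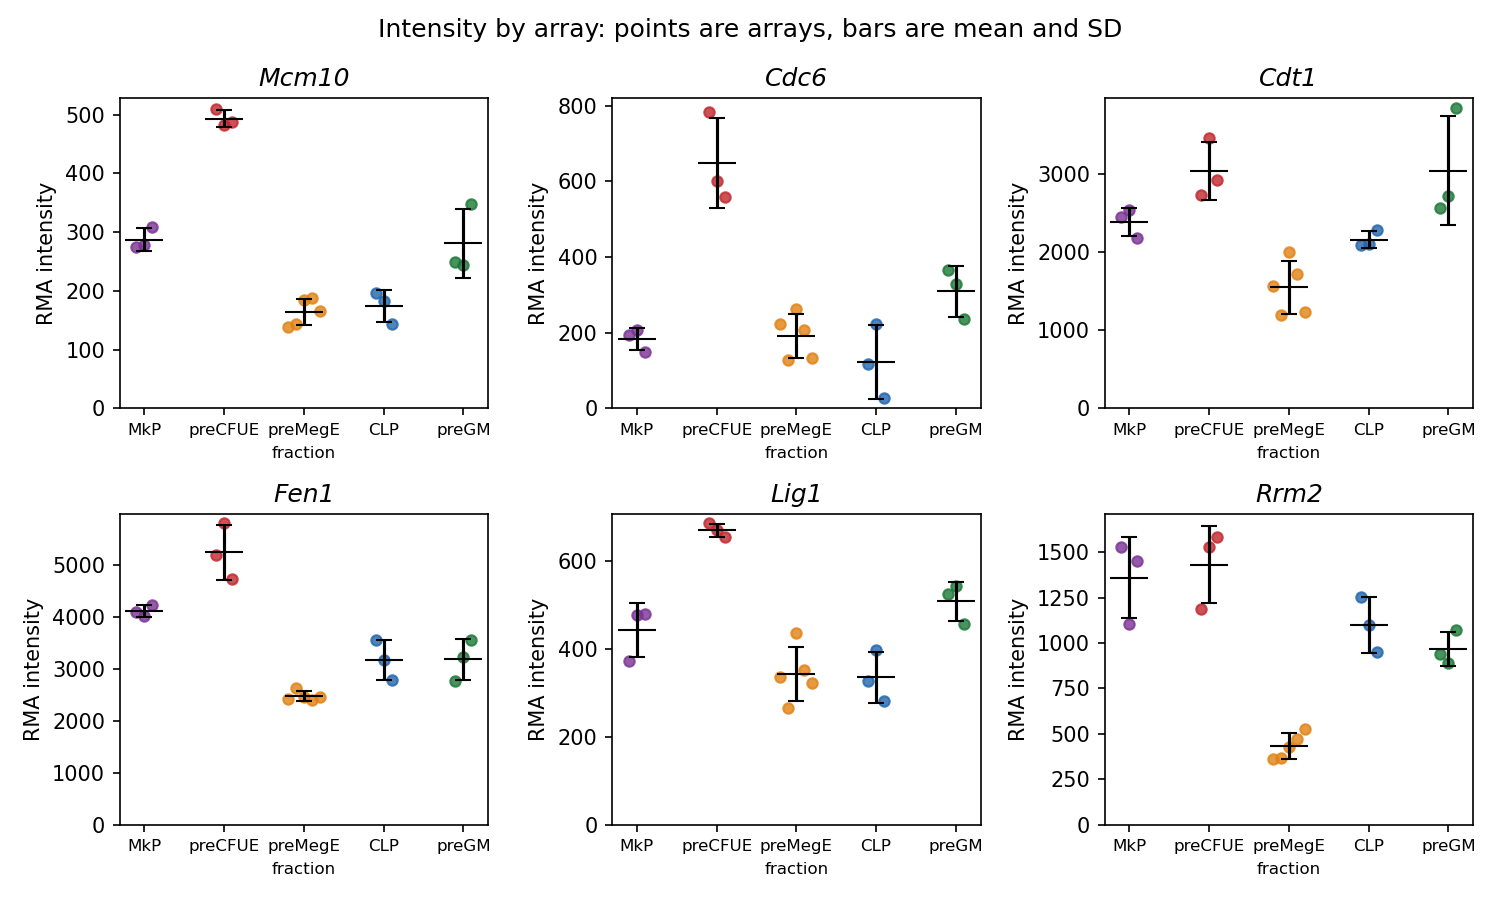
RMA intensity of Mcm10, Cdc6, Cdt1, Fen1, Lig1 and Rrm2 by fraction, with 1 point an array and bars for the mean and SD. For Mcm10 the 3 preCFUE points lie between 483 and 509.6, above all others, whereas for Rrm2 only the 5 preMegE points, between 363 and 528, stand apart.

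At the fork, Fen1, the flap endonuclease that trims Okazaki fragments, had 4085, 4003 and 4223 in MkP, 5178, 5796 and 4730 in preCFUE, 2408, 2634, 2456, 2399.8 and 2449.8 in preMegE, 3548, 3163 and 2773 in CLP, and 2756, 3221 and 3549 in preGM (F test adjusted p = 6.04e-06). The preCFUE arrays lay above MkP, MkP above CLP and preGM, which overlapped, and preMegE below all. This probe set can share probes with other sequences, and the dimmer second probe set of Fen1 differed in CLP and MkP. It gave log2 changes of -0.18 for MkP against preMegE, -1.70 for MkP against preCFUE and -1.30 for CLP against preGM, so the MkP and CLP levels of Fen1 rest on the probe set. Lig1, the ligase that joins Okazaki fragments, had 372, 476 and 479 in MkP, 685, 669 and 655 in preCFUE, 336, 264, 435, 351 and 322 in preMegE, 328, 397 and 282 in CLP, and 525, 542 and 456 in preGM (adjusted p = 0.000498). Its preCFUE arrays lay above all others, and preMegE overlapped CLP and MkP.

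Primase, polymerase and clamp loader genes took different shapes. Prim2, the large primase subunit, had 335, 244 and 299.6 in MkP, 379, 453 and 500.1 in preCFUE, 173, 204, 250.4, 188 and 214 in preMegE, 185, 300.1 and 142 in CLP, and 353, 343 and 338 in preGM (F test adjusted p = 0.00159). The preCFUE and preGM arrays did not overlap any other fraction or each other, although the lowest preGM array (338) lay just above the highest MkP array (335). Pola1, the catalytic subunit of the polymerase that extends primers, was instead highest in MkP and preGM. It had 329, 494 and 325 in MkP, 272, 281 and 330.3 in preCFUE, 249.5, 126, 255, 138 and 129 in preMegE, 151, 204 and 101 in CLP, and 366, 346 and 367 in preGM (adjusted p = 0.00335). The MkP arrays overlapped both preCFUE and preGM, and preMegE overlapped CLP. Rfc4, a subunit of the clamp loader, had 245, 352 and 242 in MkP, 574, 446 and 584 in preCFUE, 263, 148, 245, 244 and 202 in preMegE, 72.6, 197 and 61.4 in CLP, and 426, 369 and 207 in preGM (adjusted p = 0.0016). Its preCFUE arrays lay above all others and CLP replicates 1 and 3 below every other array. Pcna, the sliding clamp that the loader places on DNA, was the only one of the 13 fork genes short of the F test (adjusted p = 0.266), with 613, 3011 and 665 in CLP against 3317, 3047 and 1117 in preGM.

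Nucleotide supply was led by Rrm2, the S-phase subunit of ribonucleotide reductase. It had 1528, 1106 and 1450.4 in MkP, 1189, 1527 and 1582 in preCFUE, 363, 368, 429, 474 and 528 in preMegE, 1252, 1098 and 949 in CLP, and 941, 888 and 1070.2 in preGM, and the F test gave an adjusted p of 1.65e-06. The 5 preMegE arrays lay below every other array, and the remaining fractions overlapped in part. This probe set too can share probes, and the 2 dimmer probe sets of Rrm2 gave -0.89 and -0.82 for MkP against preCFUE and -1.20 and -0.48 for CLP against preGM, where the brightest gave -0.08 and 0.18. Rrm1, the large subunit, had 624, 827 and 609 in MkP, 1264, 918 and 936 in preCFUE, 573, 396, 503, 575 and 556 in preMegE, 320.2, 668 and 278 in CLP, and 842, 754 and 595 in preGM (adjusted p = 0.00758). All preCFUE arrays lay above the rest. Tyms, thymidylate synthase, had 37.6, 25.8 and 40.9 in MkP, 17.9, 18.2 and 28.7 in preCFUE, 10.5, 11.1, 11.7, 12.3 and 16.5 in preMegE, 23.3, 18.1 and 11.1 in CLP, and 17.9, 17.2 and 29.2 in preGM (adjusted p = 0.00667). These values lie near the pseudocount of 16, so the folds of Tyms are understated and its order among fractions rests on dim signal.

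Of the chromatin and repair genes, Uhrf1 and Ung passed the F test. Uhrf1, which helps pass DNA methylation on to the copied strand, had 489.9, 403 and 383 in MkP, 459.7, 635 and 616 in preCFUE, 208, 179, 276, 252 and 328 in preMegE, 722, 523 and 443 in CLP, and 361, 368 and 755 in preGM (F test adjusted p = 0.00611). PreMegE lay below all other arrays, which overlapped. Ung, the glycosylase that removes uracil from DNA, had 506, 426 and 516 in MkP, 562, 592 and 751 in preCFUE, 402, 347, 494, 459 and 359 in preMegE, 727, 711 and 353 in CLP, and 807, 598 and 741 in preGM (adjusted p = 0.0454). Slbp, which binds the stem-loop of histone mRNAs, had 396, 582 and 311 in MkP, 1088, 549 and 567 in preCFUE, 877, 552, 591, 809 and 627 in preMegE, 151, 923 and 177 in CLP, and 785, 806 and 340.0 in preGM (adjusted p = 0.257). The Slbp arrays of CLP spanned nearly the whole range of the series. Chaf1b, a subunit of the chromatin assembly factor, did not pass either (adjusted p = 0.502).

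Replication genes were higher in preCFUE than in preMegE, the fraction that precedes it in the erythroid path. Of 37 genes, 22 rose, against 8.81% of all genes called (4.82% higher and 3.99% lower), and 15 did not pass. The median log2 change was 0.80, against 0.0061 over all genes, and all 37 values were positive, from 0.037 to 1.72. In 31 of the 37 the arrays of the fractions did not overlap, against 17.4% of all genes. The genes that rose were 10 at origins, 9 at the fork, 2 in nucleotide supply and Uhrf1.

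Cdc6 averaged 647 ± 119 in preCFUE and 190.4 ± 58.6 in preMegE (SD, n = 3 and 5), a log2 change of 1.72 ± 0.41 (SE, adjusted p = 0.0157). Mcm10 averaged 493 ± 14.4 in preCFUE and 164 ± 22.4 in preMegE, a change of 1.51 ± 0.13 (adjusted p = 3.36e-06). Orc1 rose by 1.26 ± 0.19 (adjusted p = 0.000638). At the fork, Rfc4 rose by 1.23 ± 0.31, Fen1 by 1.07 ± 0.093 and Prim2 by 1.05 ± 0.18 (adjusted p = 0.0201, 4.28e-06 and 0.00179). Both ribonucleotide reductase subunits rose, Rrm2 by 1.69 ± 0.15 and Rrm1 by 0.97 ± 0.24 (adjusted p = 4.79e-06 and 0.0171), and Uhrf1 rose by 1.16 ± 0.24 (adjusted p = 0.00708). Mcm6 and Pcna did not pass, at 0.24 ± 0.21 and 0.40 ± 0.47 (adjusted p = 0.719 and 0.853). Without preCFUE replicate 1 the adjusted p became 0.0819 for Cdc6, 0.0856 for Rfc4 and 0.107 for Rrm1, and without preCFUE replicate 3 it became 0.0900 for Rfc4. Mcm10, Orc1, Fen1, Prim2, Rrm2 and Uhrf1 passed without each array in turn.

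**Figure D3:**
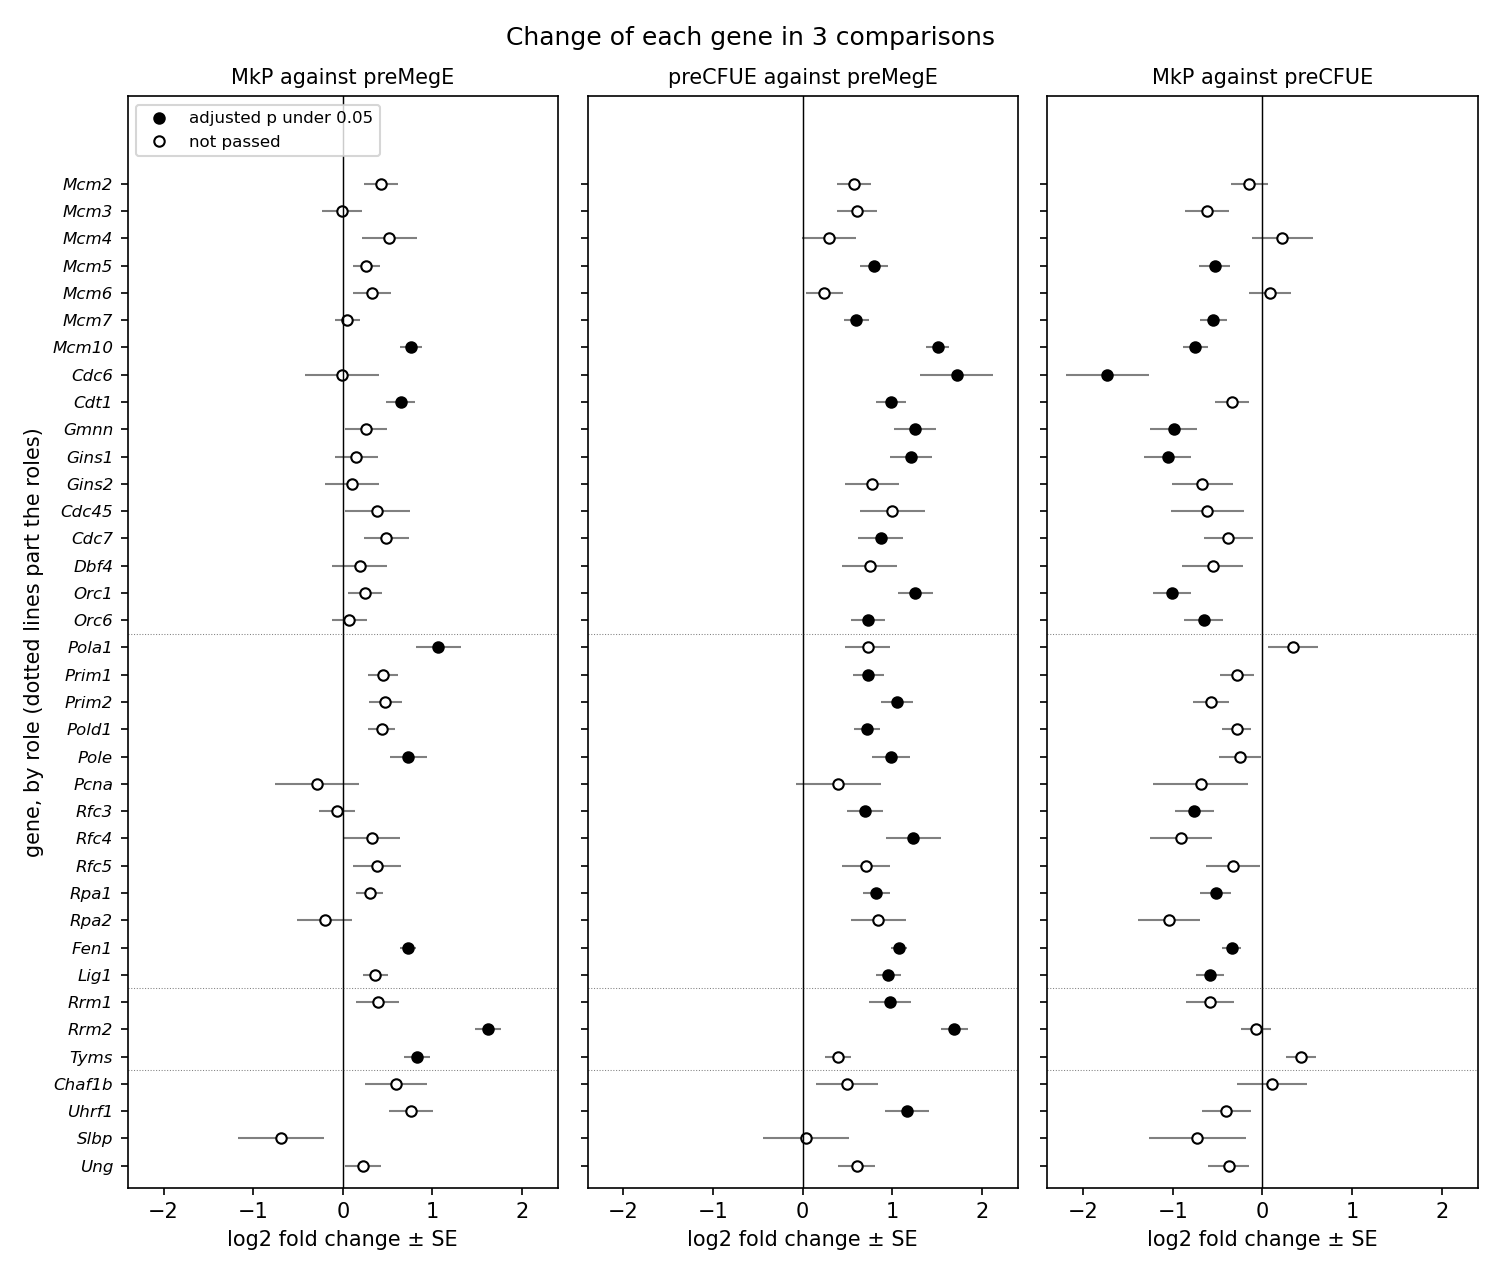
Log2 fold change of each of the 37 genes with its SE in MkP against preMegE, preCFUE against preMegE and MkP against preCFUE, with filled points for an adjusted p under 0.05 and dotted lines between roles. All 37 points lie right of 0 in the middle panel, where 22 are filled, against 7 filled in the left panel and 12, all left of 0, in the right panel.

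A smaller set rose in MkP over preMegE. Of 37 genes, 7 rose and 30 did not pass, against 10.4% of all genes called (3.98% higher and 6.38% lower), and in 12 the arrays did not overlap (20.2% of all genes). The median change was 0.37, against 0.0095 over all genes. The genes were Mcm10 and Cdt1 at origins, Pola1, Pole and Fen1 at the fork, and Rrm2 and Tyms in nucleotide supply. Pole is the catalytic subunit of the leading-strand polymerase.

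Rrm2 averaged 1361 ± 225 in MkP and 432 ± 70.4 in preMegE (SD, n = 3 and 5), a log2 change of 1.62 ± 0.15 (SE, adjusted p = 5.49e-06). Mcm10 averaged 287 ± 19.1 in MkP and 164 ± 22.4 in preMegE, a change of 0.76 ± 0.13 (adjusted p = 0.00129). Pola1 changed by 1.07 ± 0.25, Tyms by 0.83 ± 0.15, Pole by 0.73 ± 0.21 and Cdt1 by 0.64 ± 0.17 (adjusted p = 0.0132, 0.0021, 0.0367 and 0.0227). A dimmer probe set of Cdt1 did not pass, at 0.37 (adjusted p = 0.421 by limma). Fen1 changed by 0.73 ± 0.093 (adjusted p = 0.00012), but by -0.18 in its other probe set. The licensing factor Cdc6 did not pass, at -0.01 (adjusted p = 0.991), nor did the helicase subunit Mcm7, at 0.05 ± 0.14 (adjusted p = 0.864). The count depended on scaling: with quantile normalization 20 genes rose, and over all genes 1084 rose, against 724 as deposited. The share of higher calls over all genes was 55.4%, against 38.4% as deposited. Without MkP replicate 2 the count was 4, with 675 genes higher over all. The adjusted p then became 0.0653 for Pola1, 0.074 for Cdt1 and 0.125 for Pole. Cdt1 was also lost without MkP replicate 1 (0.0801) and preMegE replicate 5 (0.05), and Pole also without MkP replicate 1 or 3 and preMegE replicate 1, 2, 4 or 5 (0.0518 to 0.0916).

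Set against preCFUE, MkP had lower levels of origin and fork genes. Of 37 genes, 12 fell, against 16.3% of all genes called (5.55% higher and 10.7% lower), 25 did not pass, and in 22 the arrays did not overlap (37.2% of all genes). The median change was -0.55, against 0.0051 over all genes and -0.17 among the 10916 brighter ones. Of those brighter genes 2195 were lower. The genes that fell were 8 at origins and 4 at the fork, out of 17 and 13. Over all genes the share of higher calls was 34.1%, and with quantile normalization 52.3%, where 4 replication genes fell and 1 rose.

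Cdc6 averaged 183 ± 29.7 in MkP and 647 ± 119 in preCFUE (SD, n = 3 each), a log2 change of -1.73 ± 0.46 (SE, adjusted p = 0.0196). Gins1 changed by -1.06 ± 0.26, Orc1 by -1.01 ± 0.21 and Gmnn by -0.99 ± 0.26 (adjusted p = 0.014, 0.00517 and 0.0189). At the fork, the clamp loader subunit Rfc3 changed by -0.76 ± 0.22, Lig1 by -0.59 ± 0.16 and the single-strand binding subunit Rpa1 by -0.52 ± 0.17 (adjusted p = 0.0318, 0.0189 and 0.0474). Cdt1 did not pass, at -0.34 ± 0.19 (adjusted p = 0.251), nor did Rrm2, at -0.08 ± 0.17 (adjusted p = 0.824). A dimmer probe set of Cdt1 did pass, at -0.93 (adjusted p = 0.0423 by limma). Orc1 passed without each array in turn. The count was 3 without MkP replicate 1 or 3, 2 without preCFUE replicate 1 and 6 without preCFUE replicate 2. Over all genes 1366, 1125, 1141 and 1731 were lower without these arrays, in that order, against 1950 with all arrays. The Cdc6 adjusted p was 0.0744 without MkP replicate 3 and 0.0787 without preCFUE replicate 1. The Lig1 and Gins1 calls were lost without MkP replicate 1 (0.0874 and 0.057) or preCFUE replicate 1 (0.0645 and 0.0659), and that of Gins1 also without MkP replicate 3 (0.0583). Rfc3 was lost without MkP replicate 1 or 3 or preCFUE replicate 1 or 2 (0.0639 to 0.142), and Rpa1 when any 1 MkP or preCFUE array was left out, or any 1 of 6 arrays of the other fractions (CLP replicate 1, preGM replicates 1 and 2, preMegE replicates 1, 4 and 5), at 0.0541 to 0.166.

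PreMegE had less of the replication transcripts than preGM. Of 37 genes, 13 fell, against 8.73% of all genes called (2.82% higher and 5.91% lower), 24 did not pass, and in 18 the arrays did not overlap (14.1% of all genes). The median change was -0.53, against 0.01 over all genes, with 35 of 37 values negative. The genes that fell were Mcm5, Mcm7, Mcm10, Cdt1, Gins1 and Orc1 at origins, Pola1, Prim2, Fen1 and Lig1 at the fork, Rrm2, Uhrf1 and Ung. A dimmer probe set each of Mcm5 and Mcm7 did not pass, at -0.91 and -1.11 (adjusted p = 0.367 and 0.352 by limma).

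Rrm2 averaged 432 ± 70.4 in preMegE and 966 ± 94.0 in preGM (SD, n = 5 and 3), a log2 change of -1.14 ± 0.15 (SE, adjusted p = 9.93e-05). Cdt1 averaged 1550 ± 339 in preMegE and 3046 ± 697 in preGM, a change of -0.97 ± 0.17 (adjusted p = 0.00112). Gins1 averaged 227 ± 69.0 in preMegE and 515 ± 105 in preGM, a change of -1.16 ± 0.24 (adjusted p = 0.00466). These 3 genes passed without each array in turn. Pola1 changed by -1.01 ± 0.25, Uhrf1 by -0.89 ± 0.24, Ung by -0.77 ± 0.21 and Orc1 by -0.76 ± 0.19 (adjusted p = 0.0181, 0.034, 0.0282 and 0.0201). Mcm6 and Rrm1 did not pass, at -0.38 ± 0.21 and -0.47 ± 0.24 (adjusted p = 0.456 and 0.357). The count was 7 without preGM replicate 1, 6 without preGM replicate 2 and 8 without preMegE replicate 1, and with array weights it was 28. Over all genes 831, 805, 958 and 2378 were lower in these 4 settings, in that order, against 1075 in the main fit. The Pola1 call was lost when any 1 of the 3 preGM arrays was left out (adjusted p of 0.0567 to 0.0682), Ung without preGM replicate 1 or 3 or preMegE replicate 1, 2 or 5 (0.0561 to 0.142), and Orc1 without preGM replicate 1 or 2 or preMegE replicate 1 or 5 (0.0501 to 0.105). Uhrf1 was lost without preGM replicate 3, at -0.55 (adjusted p = 0.198), and without preMegE replicate 1, 2 or 4 (0.0592 to 0.0793). Prim2 was lost when any 1 preGM array, or preMegE replicate 1 or 4, was left out (0.0532 to 0.0852), and Lig1 without preGM replicate 1 or 2 (0.0793 and 0.0940).

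CLP also fell below preGM, with the widest changes in Rfc4, a subunit of the clamp loader, and in Cdc6. Of 37 genes, 16 fell, against 18.4% of all genes called (5.07% higher and 13.3% lower), 21 did not pass, and in 18 the arrays did not overlap (30.4% of all genes). The median change was -0.63, against 0.0046 over all genes and -0.30 among the 10916 brighter ones. Of those brighter genes 2841 were lower. By role, 8 origin genes, 7 fork genes and Rrm1 fell.

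Rfc4 averaged 110.3 ± 75.2 in CLP and 334 ± 114 in preGM (SD, n = 3 each), a log2 change of -1.57 ± 0.34 (SE, adjusted p = 0.00843). Cdc6 changed by -1.54 ± 0.46, Pola1 by -1.21 ± 0.28, Orc1 by -1.07 ± 0.21, Gins1 by -1.03 ± 0.26 and Rrm1 by -0.86 ± 0.26 (adjusted p = 0.0347, 0.0111, 0.00498, 0.0184 and 0.0383). Rfc4 and Orc1 passed without each array in turn, while Pola1 was lost without CLP replicate 3 (0.0568). Cdc6, Gins1 and Rrm1 were each lost without CLP replicate 1 or 3 or preGM replicate 1 or 2, at adjusted p of 0.0635 to 0.116, 0.0624 to 0.0828 and 0.109 to 0.165. Mcm7 did not pass, at -0.35 ± 0.15 (adjusted p = 0.118), nor Fen1, at -0.01 ± 0.10 (adjusted p = 0.973), nor Rrm2, at 0.18 ± 0.17 (adjusted p = 0.455), and the dimmer probe sets of the last pair differed as given above.

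The CLP arrays were unequal. CLP replicate 2 held the highest CLP value for 27 of the 37 genes and replicate 3 the lowest for 27. The log2 ratio of 3-prime to 5-prime Gapdh probe sets, which grows as amplified RNA shortens, was 5.12, 3.00 and 4.08 in CLP replicates 1, 2 and 3 and 2.72, 3.15 and 3.94 in preGM. With that ratio as a covariate 8 replication genes were called (468 higher and 1348 lower over all genes). With only the 6 arrays compared 1 was called (146 higher and 413 lower over all genes). Without CLP replicate 2, the array closest to preGM, 22 genes fell, with a median of -0.75, and 17 fell in MkP against preCFUE. The count was 5 without CLP replicate 1, 4 without CLP replicate 3, and 5 without preGM replicate 1 or 2. Lower calls over all 18193 genes moved too, from 2418 with all arrays to 3987 without CLP replicate 2. They numbered 1168 without CLP replicate 1, 1020 without CLP replicate 3, and 1079 and 1072 without preGM replicates 1 and 2. In MkP against preCFUE they went from 1950 to 2361 without CLP replicate 2. Over all genes the share of higher calls was 27.6%, with quantile normalization 43.2% and with median centring 15.9%, and quantile normalization left 8 replication genes lower, with a median of -0.26.

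PreCFUE was compared with preGM, the fraction with the next highest mean level. Of 37 genes, 3 rose in preCFUE and 34 did not pass, against 14.1% of all genes called (5.79% higher and 8.28% lower), and in 17 the arrays did not overlap (30.5% of all genes). The median change was 0.33, against 0.027 over all genes, and 32 of 37 values were positive. These 3 genes lay near the share over all genes. The count was 7 with quantile normalization, 9 with the 3-prime to 5-prime ratio as a covariate and 10 with array weights. Higher calls over all genes also grew, from 1054 in the main fit to 1271, 1535 and 2351, in that order. At an unadjusted p under 0.05, 11 genes were higher, a threshold for which no share over all genes is given. Mcm10 changed by 0.80 ± 0.14 (SE, adjusted p = 0.00121), Fen1 by 0.72 ± 0.10 (adjusted p = 0.000189) and Rrm2 by 0.55 ± 0.17 (adjusted p = 0.0376). The Rrm2 call was lost without preGM replicate 1 or 2 and without preCFUE replicate 2 or 3, at adjusted p of 0.0989, 0.131, 0.123 and 0.15. Rrm1 and Mcm7 did not pass, at 0.50 ± 0.26 and 0.07 ± 0.15 (adjusted p = 0.304 and 0.911).

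Genes of the later cell cycle were set beside the replication genes, using 19 measured genes of G2 and M phase. All 19 passed the F test, against 35.0% of all genes. In preCFUE against preMegE 16 of the 19 rose (10 to 17 called over the alternatives), with a median change of 1.10, against 4.82% of all genes. In MkP against preMegE 13 rose (4 to 19), with a median of 0.91, against 3.98% of all genes, where 7 of 37 replication genes rose with a median of 0.37. In MkP against preCFUE, limma called 0 of the 19 (0 to 1 over the alternatives), against 16.3% of all genes called. Of these 19, 1 had an unadjusted p under 0.05, and the median was -0.19. There 12 of the 37 replication genes fell with a median of -0.55, against 10.7% of all genes lower. That count ran from 2 to 17 when 1 array was left out. It was smaller, with a median nearer to that of the 19, with quantile normalization. The difference between the lists was not tested. In CLP against preGM 9 of the 19 fell (2 to 13 over the alternatives), against 13.3% of all genes, among them Ccnb2, a mitotic cyclin, by 2.01 ± 0.33 (SE, adjusted p = 0.00127).

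**Figure D4:**
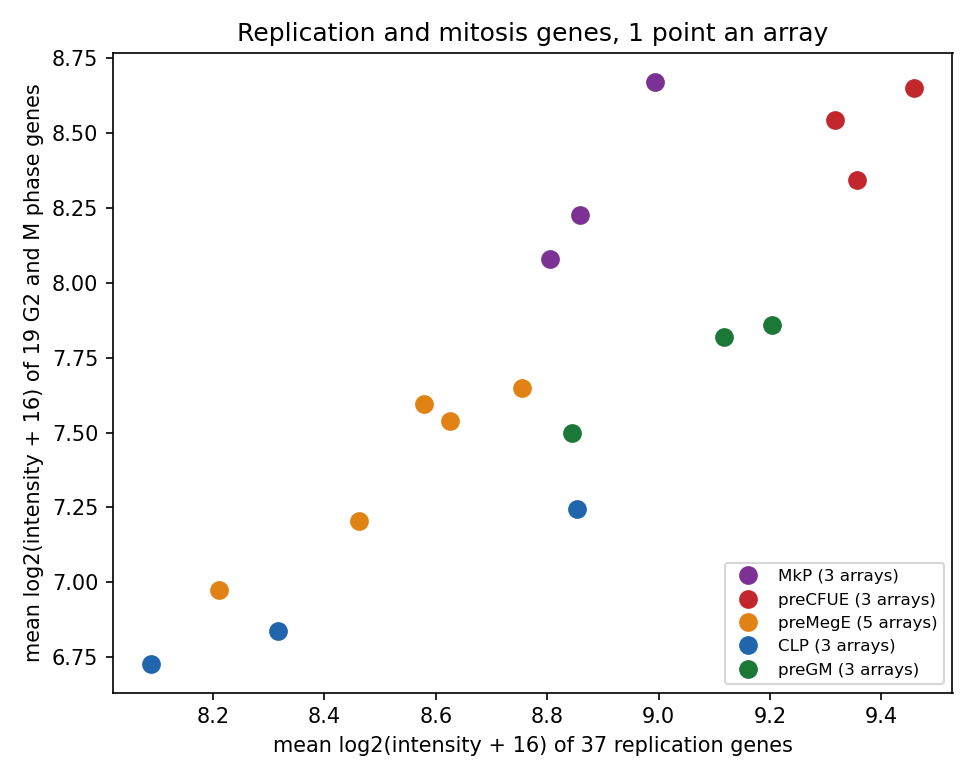
Mean log2(intensity + 16) of the 19 G2 and M phase genes against that of the 37 replication genes, with 1 point for each of the 17 arrays, coloured by fraction. The 3 MkP points lie between 8.81 and 8.99 for replication genes, overlapping preGM at 8.84 to 9.20, and above all preGM points for G2 and M phase genes.

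A further 36 measured replication genes outside the 38 were counted in the same way. In preCFUE against preMegE 10 of the 36 rose, against 4.82% of all genes, with a median change of 0.57, among them Recql4, a helicase that acts at origins, with 121 ± 12.5 in preCFUE and 29.5 ± 9.22 in preMegE (SD, n = 3 and 5) and a change of 1.61 ± 0.20 (SE, adjusted p = 0.000135). In MkP against preCFUE 8 fell, against 10.7% of all genes lower, including Recql4 at -1.29 ± 0.23 and the origin recognition subunit Orc5 at -1.42 ± 0.29 (adjusted p = 0.00125 and 0.00393). Among the 10916 brighter genes 2195 were lower, a share near that of these 8 in 36. In MkP against preMegE 3 rose, and Orc5 alone fell, at -1.21 ± 0.26 (adjusted p = 0.00745, and 0.0543 without MkP replicate 3), against 10.4% of all genes called. The median change of the 36 there was -0.14, with 16 values positive and 20 negative. For the 37 genes above it was 0.37, so their rise in MkP did not extend to this list. In CLP against preGM 6 fell (13.3% of all genes lower), in preMegE against preGM 2 fell (5.91%) and in preCFUE against preGM 3 rose (5.79% higher), so these last counts lay near the share over all genes. Over the alternatives the number called in either direction ran from 6 to 17 in preCFUE against preMegE, 4 to 15 in MkP against preCFUE, 2 to 9 in MkP against preMegE, 0 to 21 in CLP against preGM, 0 to 17 in preMegE against preGM and 3 to 13 in preCFUE against preGM.

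In each fraction except preMegE, the array with the lowest Gapdh ratio had the highest mean over the 37 genes, and the remaining arrays followed the order of the ratio in preGM alone. The same 4 arrays also had the highest mean over all genes in their fractions, at log2 levels of 6.17 in MkP, 6.23 in preCFUE, 6.17 in CLP and 6.26 in preGM. Between fractions the mean log2 ratios were 3.85 ± 0.41 in MkP, 3.49 ± 0.62 in preCFUE, 3.58 ± 0.56 in preMegE, 4.07 ± 1.06 in CLP and 3.27 ± 0.62 in preGM (SD, n = 3, 3, 5, 3 and 3). With the ratio as a covariate, 25 genes rose in preCFUE against preMegE, 8 rose in MkP against preMegE, 12 fell in MkP against preCFUE and 15 fell in preMegE against preGM, while 9 rose in preCFUE against preGM. Over all genes the calls in these directions numbered 1238, 847, 2152, 1158 and 1535, in that order. Without the covariate they numbered 877, 724, 1950, 1075 and 1054.

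**Figure D5:**
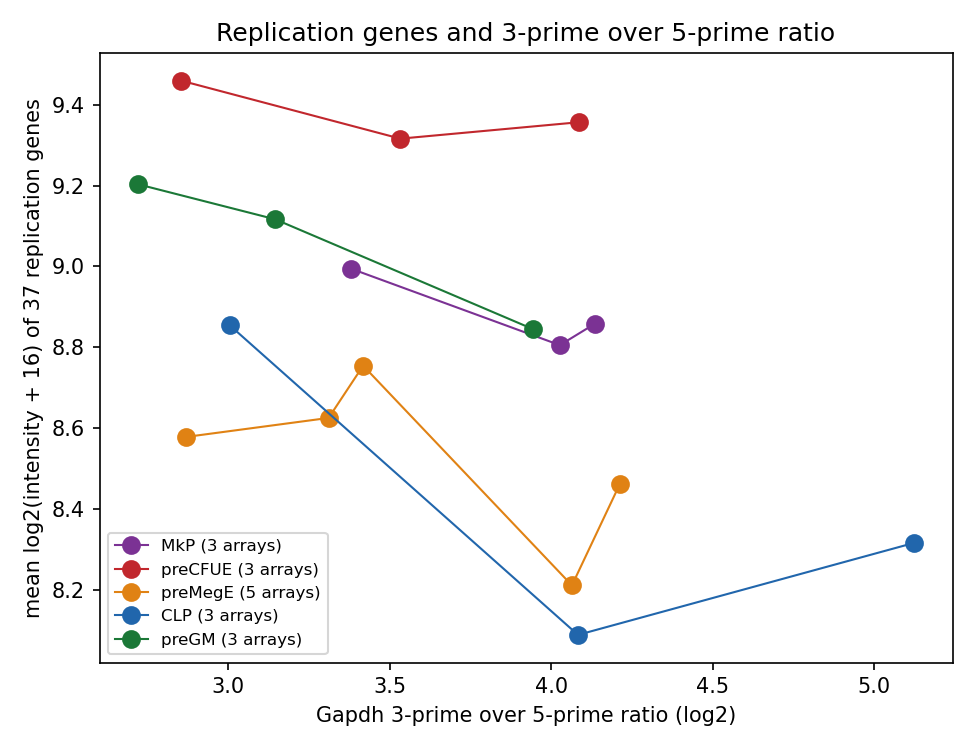
Mean log2(intensity + 16) of the 37 replication genes against the log2 ratio of 3-prime to 5-prime Gapdh probe sets, with 1 point for each of the 17 arrays and lines joining the arrays of a fraction. The preCFUE points lie highest, between 9.32 and 9.46, over ratios from 2.85 to 4.09, and the CLP point at a ratio of 3.00 lies above the other CLP points.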

How the data were processed

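The intensity values the authors deposited are linear and come from RMA, per the series' design text and the submitters' notes on processing; the RMA version is not given in the sources used here. Per the labels' protocols cells were sorted into lysis buffer, and per the design text RNA was amplified in more than 1 round, which shortens it toward the 3-prime end. The table holds 45101 probe sets. In the platform annotation 34945 of them carry 1 symbol; 932 with several symbols, 9211 that it does not list and 64 controls were set aside. For each of 18193 genes the probe set with the highest mean over the 17 arrays was kept.

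Values were analysed as log2(intensity + 16) with limma 3.58.1 in R 4.3.3, with 1 term a fraction over all 17 arrays, and p-values were adjusted by Benjamini-Hochberg over all genes at 0.05. The fit had 12 residual degrees of freedom and 2.01 prior ones. Of all gene values 34.9% were under 16, but no replication gene averaged under 16. The 37 measured genes have 44 further probe sets, 13 of them averaging under 16. No gene had 2 probe sets called in opposite directions in 1 comparison, but in CLP against preGM a dimmer probe set was called opposite to the uncalled value of the one used for Cdc45 (0.52 against -0.50), Cdc7 (0.35 against -0.14) and Rrm2 (-1.20 against 0.18).

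Groups came from the gate in each title. Promoter windows came from RefSeq GRCm38.p6, which was matched by symbol. The 38 genes and the lists were chosen with earlier results of these data known. Any of them may be named. In every role group the 3 with the smallest F test p have values by array, with a few others shown, and in every comparison the text names mainly the 3 largest called changes of a role and the brightest gene not called. Alternatives covered the pseudocount, scaling, filters, probe set choice, array weights, arrays used, the 3-prime to 5-prime ratio, a replicate block and leaving out each array. Replicate numbers showed no sign of pairing the samples. Across 30 same-numbered pairs of arrays the correlation of deviations ran from -0.54 to 0.51, with a mean of -0.0055. Across 84 differently numbered pairs it ran from -0.60 to 0.59, with a mean of 0.0012. These correlations cannot settle whether the samples were paired.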

Additional observations from a re-analysis of the deposited data

Results flagged for a closer look

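In 3 of the 37 replication genes, 1 preMegE array stood apart from the other 4 by Dixon's criterion, which chance meets in about 1 group in 20. Mcm5 read 1722 on preMegE replicate 2, against 2169 to 2307 on the others. Rfc3 read 51.3 on preMegE replicate 3, against 27.7 to 31.8 on the others. Fen1 read 2634 on preMegE replicate 2, against 2399.8 to 2456 on the others.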

How the results depend on the processing

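Leaving out each array in turn, the number of replication genes past the F test lay between 25 and 32 (28 with all arrays). The counts of called genes lay between 6 and 16 for preMegE against preGM, 4 and 10 for MkP against preMegE, 15 and 25 for preCFUE against preMegE, 2 and 17 for MkP against preCFUE, 4 and 22 for CLP against preGM, and 2 and 4 for preCFUE against preGM. In the same order the medians lay between -0.63 and -0.44, 0.28 and 0.40, 0.72 and 0.86, -0.55 and -0.46, -0.76 and -0.51, and 0.19 and 0.41. Quantile normalization gave 20 calls for MkP against preMegE (median 0.63), 5 for MkP against preCFUE (median -0.18), 8 for CLP against preGM (median -0.26) and 7 for preCFUE against preGM. The design text's filter on SD over mean above 0.5 left 10 of the 37 genes, of which 7 passed the F test; in the order above the calls were 2, 1, 6, 6, 6 and 1, with medians of 0.15 for MkP against preMegE, 1.16 for preCFUE against preMegE, -0.93 for MkP against preCFUE and -1.19 for CLP against preGM. The mean over probe sets gave a median of -0.42 for MkP against preCFUE. Array weights gave 28 calls for preMegE against preGM, 11 for MkP against preMegE and 10 for preCFUE against preGM. Only the arrays compared gave 1 call for CLP against preGM and 5 for preCFUE against preGM. The 3-prime to 5-prime ratio as a covariate gave 8 and 9 for the same pair of comparisons. A replicate block, though the numbers showed no sign of pairing, gave 4, 4, 14, 5, 9 and 3 calls in the order above. Calls over all genes moved as well. For preMegE against preGM there were 513 higher and 1075 lower in the main fit. Array weights gave 1388 and 2378, and the replicate block 369 and 700. Except for the filter, which leaves fewer genes, the arrays left out and the arrays compared, the cause was not tested.

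Of 98 named changes 74 passed, 37 of these were lost in at least 1 alternative and 13 of the 98 changed direction in at least 1. Fen1 in MkP against preMegE was the only called one among them, at -0.18 under the filter, which kept its other probe set. Slbp in preCFUE against preMegE was -0.076 with quantile normalization, -0.13 with array weights and -0.039 with the ratio as covariate, and ran from -0.28 to 0.21 without 1 array. Slbp in preMegE against preGM was -0.32 under the filter, -0.060 over probe sets and -0.089 with weights, and ran from -0.22 to 0.38. Slbp in preCFUE against preGM was -0.12 under the filter and -0.22 with weights, and ran from -0.18 to 0.42. Under the filter Slbp was 0.19 in MkP against preMegE and 0.38 in CLP against preGM. With quantile normalization Cdt1 was 0.0099 and Rrm2 0.26 in MkP against preCFUE, and Mcm7 0.010 and Fen1 0.43 in CLP against preGM. Rrm2 in MkP against preCFUE ran from -0.20 to 0.066 without 1 array, and in CLP against preGM it was -0.48 under the filter and -0.50 over probe sets. Fen1 in CLP against preGM was 0.071 with weights and ran from -0.10 to 0.085. Mcm7 in MkP against preMegE was -0.35 under the filter and -0.065 over probe sets and ran from -0.043 to 0.16, and in preCFUE against preGM it was -0.033 under the filter. Dim signal limits Tyms, Orc1 and Rfc3, whose means lay under 64 units.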

Other observations

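Among 14 genes of the E2F and cyclin class, which act at the entry to S phase, 7 passed the F test, against 35.0% of all genes. Of the 14, 4 rose in MkP against preMegE (3.98% of all genes higher), 3 rose in preCFUE against preMegE (4.82%), 1 rose and 1 fell in MkP against preCFUE (16.3% called), 1 rose and 1 fell in preMegE against preGM (8.73%), 1 rose and 4 fell in CLP against preGM (18.4%), and 3 rose in preCFUE against preGM (5.79% higher). The genes named below are among those with the largest changes. Ccne1, the cyclin of the G1 to S transition, averaged 801 ± 189 in preCFUE and 107 ± 18.7 in preMegE (SD, n = 3 and 5), a log2 change of 2.72 ± 0.23 (SE, adjusted p = 3.24e-06), and was lower in MkP than in preCFUE by limma, at -1.95 ± 0.26 (adjusted p = 0.000112). E2f7, a repressor of the E2F family, was higher in MkP, with 196 ± 14.8 in MkP and 46.5 ± 11.8 in preMegE, a change of 1.78 ± 0.19 (adjusted p = 2.85e-05), and 1.18 ± 0.22 against preCFUE (adjusted p = 0.00192). E2f8, a related repressor, ran the other way from the replication genes in preMegE against preGM, at 1.29 ± 0.16 (adjusted p = 6.25e-05), with 1380 ± 228 in preMegE and 556 ± 109 in preGM. Ccna2, the cyclin of S and G2 phase, rose by 1.42 ± 0.16 in MkP and by 1.32 ± 0.16 in preCFUE, each against preMegE (adjusted p = 3.05e-05 and 8.16e-05).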
